A study of Mus musculus with 6 samples.

Results

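The expression of 10 enzyme genes of glycolysis was followed across RNA-Seq libraries of 2 mouse myeloid cell types. They are the hexokinases Hk1, Hk2 and Hk3, the glucose-6-phosphate isomerase Gpi1, the phosphofructokinases Pfkl and Pfkp, the aldolase Aldoa, the phosphoglycerate kinase Pgk1, the enolase Eno1 and the lactate dehydrogenase Ldha. The genes were chosen by symbol, and all 10 had a row among the 35237 genes of the FPKM table and a row among the 36536 genes of the ALEXA-Seq table. BMDM, the bone marrow monocytes, were sorted by FACS as CD11b+ CD45high CD115+ Ly6G- cells. BSM, the brainstem microglia, were sorted as CD11b+ CD45low CD115low Ly6G- cells. Each group had 3 libraries, each made from amplified RNA of cells pooled from several C57BL/6 mice at 6 weeks of age, and per the labels replicate 1 of each group was male and replicates 2 and 3 were female. The study compared these cells to find transcripts that tell monocytes entering the brain from its resident microglia.

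Glycolysis turns glucose into pyruvate in the cytosol, and lactate dehydrogenase turns pyruvate into lactate when oxidation in the mitochondrion is slow or bypassed. Several steps are carried out by isoenzymes from separate genes that differ in regulation and tissue, so a cell can keep a step and change its isoform. In macrophages, glycolysis is known to rise on inflammatory activation, and many of its genes are targets of the hypoxia-inducible factor HIF-1, whose core site reads ACGTG or GCGTG.

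The 250 bases before each start site of these genes were searched for ACGTG and GCGTG on both strands, in the promoter sequences of RefSeq on build GRCm38.p6. A site CACGTG, the E-box of Myc and related factors, holds ACGTG on both strands and is counted with it. At least 1 match was present at 13 of 16 start sites, where 38.6% of 32851 start sites of all genes hold one. These 13 lie in 9 of the 10 genes, and start sites of the same gene can share a match. The share over all genes was not matched to these promoters in base composition. The gene without a match was Gpi1, which says only that these letters are not in this window. CACGTG was found at 1 of the 16 start sites, in Ldha, where 6.0% of all start sites hold it. Windows of 30 bases from 5 genes are shown, in the direction of transcription with the matches in capitals. Ldha and Pgk1 are textbook HIF-1 targets, Hk2 is an enzyme whose level in the deposited values was alike in both cell types, and Aldoa and Pfkp are enzymes with a higher level in BMDM.
Pgk1, chrX:106186947-106186976, plus strand, 153 to 124 bases before the start: aggACGTGacaaatggaagtagCACGTctc
Ldha, chr7:46845748-46845777, plus strand, 56 to 27 bases before the start: ccagcctaCACGTGggttcccgCACGTccg
Hk2, chr6:82774664-82774693, minus strand, 239 to 210 bases before the start: tagccacggaacaCACGTcccaactctggc
Aldoa, chr7:126799364-126799393, minus strand, 215 to 186 bases before 1 start and 139 to 110 before another: atgtggctcgagtCACGTcctagcggggcg
Pfkp, chr13:6648891-6648920, minus strand, 149 to 120 bases before the start: tccctaacagaacGCGTGtccatactatcc
CACGT and CACGC are ACGTG and GCGTG read on the other strand. A match of letters is a description of the sequence and not a bound site.

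Markers of the labelled cell types were present in each group. For 7 monocyte genes (among them Ccr2 and Vcan), the summed FPKM lay between 498 and 530 in BMDM libraries and ranged from 1.15 to 1.57 in BSM libraries. That of 10 microglia genes (among them P2ry12, Tmem119 and Sall1) lay between 17.8 and 20.9 in BMDM, where 7 of the 10 stayed under 1 FPKM, and between 1185 and 1358 in BSM. The summed FPKM of 10 granulocyte genes was 63.7, 535 and 109 in BMDM replicates 1, 2 and 3 and at most 0.094 in BSM. Mpo, which marks granulocyte precursors, alone had 32.7, 181 and 67.1 FPKM in BMDM, and Elane was at 0 in BSM. The 8 erythroid genes summed to 27.9, 119 and 19.1 FPKM in the same BMDM libraries and to at most 0.343 in BSM. The 6 astrocyte genes reached 5.31 to 9.52 FPKM in BSM, 5 of them under 1 FPKM there, and the 4 neuron genes with a row stayed under 1 FPKM in every library. The 6 oligodendrocyte genes summed to 5.58 to 8.62 FPKM in BMDM and 0.927 to 1.21 in BSM, the 6 endothelial genes to 2.32 to 3.87 and 1.31 to 2.92, and the 7 lymphocyte genes to 0.635 to 8.89 and 0.317 to 0.486. In every BMDM library 5 of these oligodendrocyte, 4 of the endothelial and 5 of the lymphocyte genes stayed under 1 FPKM. BSM replicate 1, to which the study's quality record gives the least and most degraded RNA, had 472 of 6364 tested genes listed at 0 FPKM, against 51 to 115 in the other libraries.

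The sums and the scaling of the tables bear on every level below. The FPKM of all genes summed to between 163198.7 and 194184.2 in BMDM and between 68287.8 and 75021.4 in BSM, so most genes read higher in BMDM. FPKM were compared by limma on log2(FPKM + 1) for the 6364 genes with at least 3 FPKM in at least 1 library, with Benjamini-Hochberg adjustment, and positive log2 fold changes, given with their standard error (SE), mean higher in BMDM. All tested genes together had a median log2 fold change of 0.81, and changes of the enzymes are given relative to it where this matters. The median was 0.02 with quantile normalization, -0.23 with each library set to the same sum of FPKM and 0.15 after upper quartile scaling. The ALEXA-Seq values, a second quantification of the same libraries whose unit is not stated, were tested in the same way, with a median of 0.84. In sorted bulk samples, fewer cells expressing a gene and less RNA per cell cannot be told apart.

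Most of the glycolysis enzymes had lower FPKM in BSM than in BMDM. The 10 enzymes summed to 50.6, 56.6 and 49.6 FPKM in the BMDM libraries and to 13.7, 15.5 and 14.9 FPKM in the BSM libraries. As a share of all FPKM in a library, which does not depend on scaling, they made up 0.0286% to 0.0310% in BMDM and 0.0197% to 0.0219% in BSM, without overlap. Of the 6 enzymes that passed the FPKM minimum, 5 were higher in BMDM at an adjusted p under 0.05, where 45.3% of all tested genes were. None was higher in BSM, where 9.22% of all tested genes were, and 54.5% were called in either direction. Gpi1, Pfkp, Aldoa and Eno1 passed the minimum through BMDM alone, the group where they were higher, so this count is a description of the enzymes that passed and not of all 10. Under each of the other FPKM scalings 3 of the 6 enzymes (Gpi1, Pfkp and Aldoa) were higher in BMDM and 1 (Hk2) in BSM, and after quantile normalization 21.7% and 19.3% of all tested genes were. In 7 of the 10 enzymes every BMDM library lay above every BSM library, where 55.2% of the tested genes did. Hk1 and Pgk1 are among these 7 but not among the tested genes, so the count and the share cover different sets of genes. By ALEXA-Seq, 4 of 6 tested enzymes were higher in BMDM and none in BSM, where 37.1% and 10.9% of the tested genes were and 47.9% were called in either direction. These 4 (Gpi1, Pfkp, Aldoa and Pgk1) had values high enough to be tested in BMDM alone. This count too is a description of the enzymes tested and not of all 10. In 7 of the 10 enzymes the ALEXA-Seq values of BMDM lay above those of BSM without overlap, where 51.5% of the tested genes did. Here Hk1, Hk3 and Eno1 are among the 7 but were not tested by ALEXA-Seq, so these sets differ as well.

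**Figure D1:**
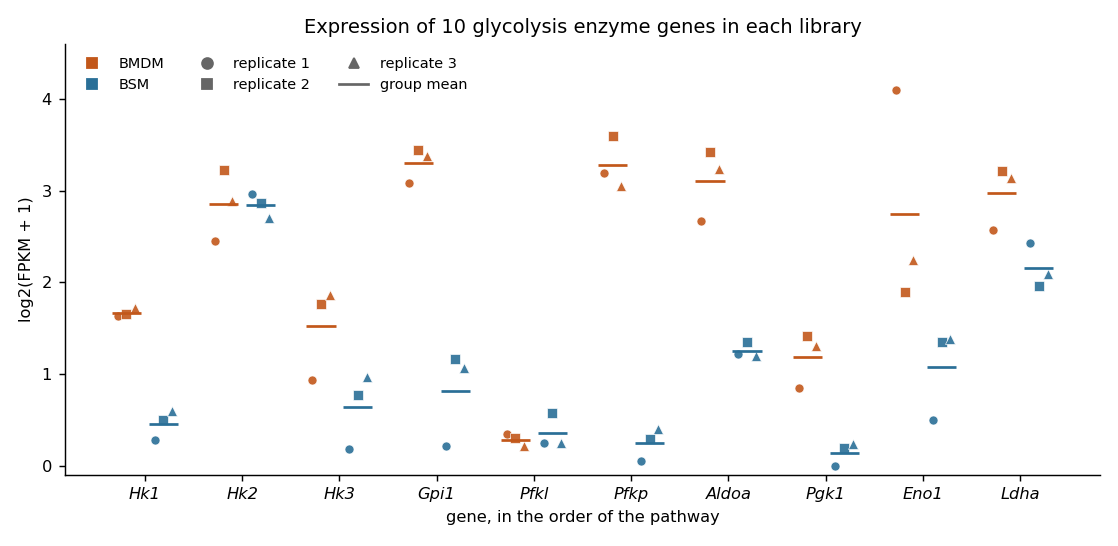
Expression of the 10 enzymes as log2(FPKM + 1), each point a library (orange BMDM, blue BSM, shapes for replicates 1 to 3) and each line the mean of 3 libraries. Hk2 lies at the same height in both groups, Pfkl is near 0 in both, and Eno1 in BMDM replicate 1 stands far above the other libraries.

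The order of the levels differed between the cell types. FPKM are scaled by length, so levels of different genes can be set in order, though rows of near-identical copies are left out here. The order rests on FPKM alone, since ALEXA-Seq values are not known to be scaled by length. In BMDM the means of Gpi1, Pfkp, Aldoa, Eno1, Ldha and Hk2 lay between 6.41 and 8.93 FPKM, and neighbours in that order overlapped in their libraries. The place of Eno1 rests on BMDM replicate 1, with 16.1 FPKM against 2.72 and 3.75 FPKM in replicates 2 and 3. Hk1, Hk3 and Pgk1 followed at 2.18, 1.98 and 1.31 FPKM, with overlap between neighbours, and Pfkl was last at 0.219 FPKM without overlap. The rank of Pgk1 is uncertain, since its 2 tables disagree as given below. In BSM the order was led by Hk2 with a mean of 6.19 FPKM and Ldha with 3.51 FPKM, and neither overlapped with the gene next to it. Aldoa, at 1.39 FPKM, overlapped with Eno1, at 1.19 FPKM, and of the other 6 enzymes only Gpi1 reached 1 FPKM in a BSM library. Among 9638 genes (those with at least 1 FPKM in at least 1 library, and Pfkl), Hk2 ranked at percentiles 64.6 to 73.7 in the BMDM libraries and 79.5 to 83.2 in the BSM libraries. Pfkp had the opposite pattern, with percentiles of 72.3 to 79.7 in BMDM and 10.7 to 17.5 in BSM.

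Of the hexokinases, which carry out the first step, Hk2 had the highest FPKM in every library. Hk2 (chr6:82675041-82724453, positions of this and the following genes on mm9) encodes the insulin- and HIF-responsive hexokinase bound to mitochondria. Its FPKM was 4.48, 8.39 and 6.37 in BMDM replicates 1, 2 and 3 and 6.82, 6.26 and 5.50 in BSM replicates 1, 2 and 3. The BSM values lay inside the range of the BMDM values. The log2 fold change was 0.01 (SE 0.27, adjusted p = 0.969 in limma), or -0.79 after subtracting the median of all tested genes. After quantile normalization Hk2 was called higher in BSM with a log2 fold change of -0.72 (limma adjusted p = 0.0307). The same held for scaling to the same sum (-1.14, adjusted p = 0.00866 in limma) and for upper quartile scaling (-0.73, adjusted p = 0.0408 in limma). Less the median of all tested genes, Hk2 stayed between -0.91 and -0.74 on the log2 scale under the 4 FPKM scalings. By ALEXA-Seq the log2 fold change was -0.14 (limma adjusted p = 0.732), and -0.86 after quantile normalization (limma adjusted p = 0.0282).

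Hk1 (chr10:61731603-61842656) encodes the widely expressed hexokinase of brain and red cells. It had 2.11, 2.14 and 2.28 FPKM in BMDM and 0.213, 0.415 and 0.515 FPKM in BSM. The groups did not overlap, and the ratio of the means was 5.72. Hk1 did not reach the minimum of 3 FPKM, and with a minimum of 1 FPKM the log2 fold change was 1.21 (limma adjusted p = 0.00296). Hk3 (chr13:55107346-55122746), the hexokinase of leukocytes, had 0.918, 2.40 and 2.63 FPKM in BMDM and 0.136, 0.708 and 0.962 FPKM in BSM. Its groups overlapped, since BSM replicate 3 lay above BMDM replicate 1, and with a minimum of 1 FPKM it was not called (log2 fold change 0.88, limma adjusted p = 0.0627).

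Because an isoform's share of its enzyme family is a ratio within a library, it does not move with scaling between libraries. The exact permutation test of 3 against 3 libraries can give no p below 0.1, and 14 shares were tested. Shares within a family add up to 100%, so they are not independent. Hk2 made up 60.3% ± 4.26 (SD, n = 3) of the summed hexokinase FPKM in BMDM and 86.2% ± 8.33 (SD, n = 3) in BSM. It took 56.5% to 64.9% in BMDM libraries and 78.7% to 95.1% in BSM libraries, without overlap (exact two-sided permutation p = 0.1, adjusted p = 0.156). Hk1 had 21.6% ± 5.91 in BMDM and 5.32% ± 2.21 in BSM (SD, n = 3 each), also without overlap and with the same p in the exact permutation test. Hk3 had 18.0% ± 5.57 in BMDM and 8.41% ± 6.02 in BSM, and its groups overlapped. Hkdc1 was at 0 in every library. By ALEXA-Seq, which is not known to be scaled by length, Hk2 took 74.7% to 80.0% in BMDM and 88.3% to 97.8% in BSM. The hexokinase genes together came to 7.51, 12.9 and 11.3 FPKM in BMDM and to 7.16, 7.40 and 6.99 FPKM in BSM.

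**Figure D2:**
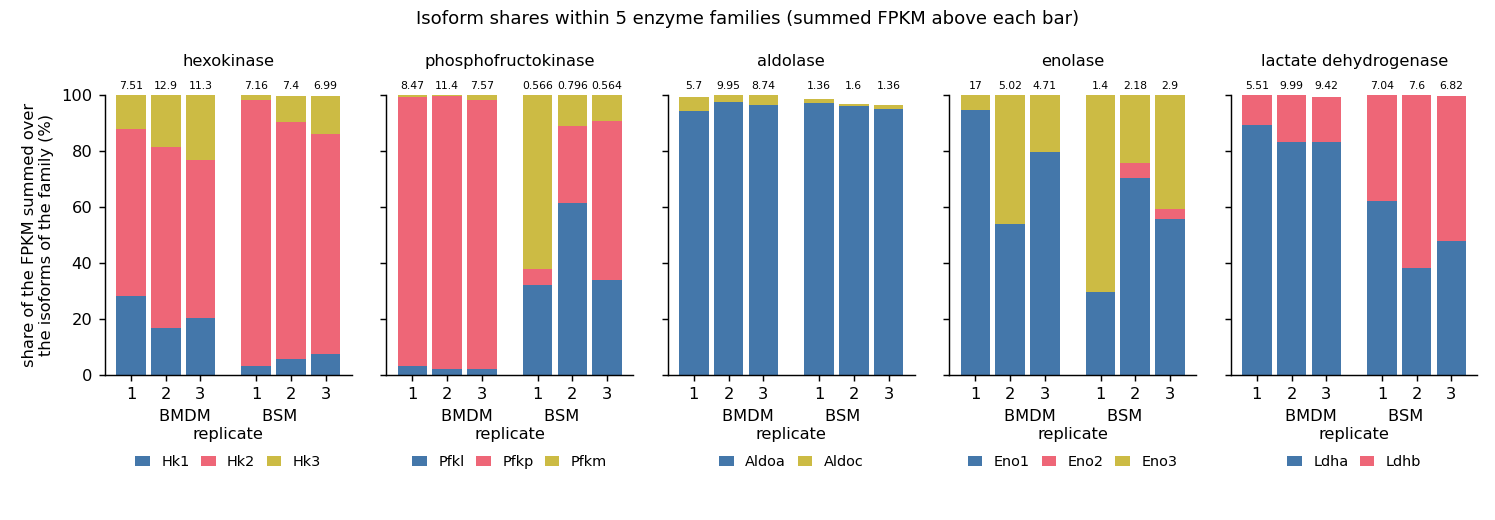
Share of each isoform in the FPKM summed over its enzyme family (percent), one bar per library, with the summed FPKM above each bar and isoforms under 5% in every library left out. Hk2 and Ldhb take larger shares in BSM, Pfkp takes almost all of the phosphofructokinase sum in BMDM, and aldolase is nearly all Aldoa in both.

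Gpi1 and Pfkp, which act on the next steps, were called higher in BMDM under each scaling of both tables. Gpi1 (chr7:34987141-35015308) encodes the isomerase that makes fructose-6-phosphate. It had 7.49, 9.91 and 9.37 FPKM in BMDM and 0.157, 1.24 and 1.1 FPKM in BSM. The lowest BMDM library lay far above the highest BSM library, and the ratio of the means was 10.7. The log2 fold change was 2.49 (SE 0.31, limma adjusted p = 0.00051), and it stayed between 1.64 and 1.95 under the other scalings. The annotation holds 1 near-identical copy of Gpi1, Gm1840, which covers 50.2% of its transcript and had 2.44, 3.37 and 3.94 FPKM in BMDM and 0.239 to 0.458 FPKM in BSM. Its ALEXA-Seq value was 0 in every library. Summed with that row, Gpi1 had a log2 fold change of 2.65 (limma adjusted p = 0.000349).

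Phosphofructokinase, the committing step of glycolysis, had the largest log2 fold change of the 6 enzymes tested by FPKM. Pfkp (chr13:6579014-6648023), the platelet-type isoform, had 8.17, 11.1 and 7.29 FPKM in BMDM and 0.0318, 0.219 and 0.322 FPKM in BSM. The ratio of the means was 46.5, and the log2 fold change was 3.04 (SE 0.26, limma adjusted p = 7.44e-05). Pfkl (chr10:77449692-77472828), the liver-type isoform, had 0.266, 0.231 and 0.158 FPKM in BMDM and 0.183, 0.489 and 0.190 FPKM in BSM. Its groups overlapped, it passed neither minimum, and without any minimum the log2 fold change was -0.07 (limma adjusted p = 0.695). Pfkp made up 96.8% ± 0.77 of the summed phosphofructokinase FPKM in BMDM and 30.1% ± 25.8 in BSM (SD, n = 3 each), without overlap (exact permutation p = 0.1). The BSM shares rest on sums of 0.564 to 0.796 FPKM over the 3 isoforms and scatter widely. In BSM replicate 1 the muscle isoform Pfkm led with 62.2%, whereas Pfkl led in replicate 2 with 61.4% and Pfkp in replicate 3 with 57.0%. No BSM library had a phosphofructokinase isoform at 1 FPKM or more.

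Aldoa (chr7:133938748-133944265), the aldolase of muscle and most other cells, had 5.37, 9.71 and 8.43 FPKM in BMDM and 1.32, 1.54 and 1.29 FPKM in BSM. Every BMDM library was above every BSM library. The ratio of the means was 5.65 and the log2 fold change 1.86 (SE 0.27, limma adjusted p = 0.000949), and it was between 0.89 and 1.23 under the other scalings, with each below an adjusted p of 0.05. Aldoa made up 96.1% ± 1.68 of the aldolase FPKM in BMDM and 96.2% ± 1.2 in BSM (SD, n = 3 each), with overlap, and the difference of -0.06 percentage points was smaller than the spread between libraries. Aldoc, the brain isoform, took 3.71% ± 1.4 in BMDM and 1.1% ± 0.58 in BSM (SD, n = 3 each). Its groups did not overlap by FPKM but did by ALEXA-Seq, and its share rests on values of at most 0.308 FPKM.

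Pgk1 (chrX:103382439-103399038) encodes the first ATP-producing enzyme of the pathway and has the paired ACGTG matches shown above. It had 0.794, 1.67 and 1.47 FPKM in BMDM, was listed at 0 in BSM replicate 1 and had 0.141 and 0.179 FPKM in BSM replicates 2 and 3. It did not reach the minimum of 3 FPKM, and with a minimum of 1 FPKM it was called higher in BMDM (log2 fold change 1.05, limma adjusted p = 0.00887). By ALEXA-Seq, Pgk1 had 181, 322 and 253 in BMDM and 1.16, 30.4 and 20.2 in BSM, so that BSM replicate 1 was again the lowest. Its ALEXA-Seq log2 fold change was 4.45 (SE 0.97, limma adjusted p = 0.00966). The annotation has 2 near-identical copies that cover 68.6% and 68.8% of the Pgk1 transcript, and their rows summed to at most 0.0285 FPKM in any library. Pgk2, the testis isoform, was at 0 in every library of both tables.

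Eno1 (chr4:149610830-149622988) encodes the ubiquitous enolase. It had 16.1, 2.72 and 3.75 FPKM in BMDM and 0.414, 1.54 and 1.61 FPKM in BSM. The groups did not overlap, and BMDM replicate 1 was far above the other libraries. The log2 fold change of 1.67 (SE 0.57, limma adjusted p = 0.0389) was kept without BMDM replicate 2 (2.10, limma adjusted p = 0.0383) and lost without any other single library. Without BMDM replicate 1 it was 0.99 (limma adjusted p = 0.0738). The call was also lost without BMDM replicate 3 (1.92, limma adjusted p = 0.064) and without BSM replicate 1 (1.38, adjusted p = 0.1 in limma). Leaving out BSM replicate 2 (1.80, limma adjusted p = 0.0529) or BSM replicate 3 (1.82, limma adjusted p = 0.0521) ended it as well. It was not called under the other scalings (log2 fold change 0.78 to 1.12). By ALEXA-Seq, BMDM replicate 1 did not stand apart, with 36.9 against 20.6 and 29.7 in replicates 2 and 3, and the BSM values were 5.95, 13.4 and 13.3. The annotation has 3 near-identical copies of Eno1, which cover up to 85.6% of its transcript, and the 2 with a row summed to at most 0.344 FPKM. The share of Eno1 among the enolases overlapped between the groups, at 76.2% ± 20.6 in BMDM and 51.9% ± 20.7 in BSM (SD, n = 3 each), with Eno3, the muscle enolase, holding most of the remainder.

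The summed lactate dehydrogenase FPKM overlapped between the groups, whereas the shares of its subunits did not. Ldha (chr7:54096845-54110997) encodes the subunit that favours lactate formation and has the CACGTG and ACGTG matches shown above. It had 4.93, 8.31 and 7.83 FPKM in BMDM and 4.38, 2.90 and 3.25 FPKM in BSM. The groups did not overlap, by a gap between BSM replicate 1 and BMDM replicate 1 that was small beside their spread. The log2 fold change was 0.82 (SE 0.27, limma adjusted p = 0.035). It was 0.13 with quantile normalization and -0.28 with the same sum per library (limma adjusted p = 0.706 and 0.435). Less the median of all tested genes, Ldha lay between -0.05 and 0.11 on the log2 scale under the 4 FPKM scalings. The call was lost without BMDM replicate 2 (0.70, limma adjusted p = 0.114), without BMDM replicate 3 (0.73, limma adjusted p = 0.132), without BSM replicate 2 (0.72, limma adjusted p = 0.115) and without BSM replicate 3 (0.78, limma adjusted p = 0.0958).

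Ldhb, the heart-type subunit that favours pyruvate formation, had 0.580, 1.68 and 1.53 FPKM in BMDM and 2.67, 4.70 and 3.54 FPKM in BSM. It was called higher in BSM in both tables, with a log2 fold change of -1.05 in FPKM (SE 0.31, limma adjusted p = 0.0232) and -1.98 by ALEXA-Seq (limma adjusted p = 0.00736). Without BMDM replicate 1, BMDM replicate 3, BSM replicate 2 or BSM replicate 3 the FPKM call was lost. The 3 lactate dehydrogenase genes summed to 5.51, 9.99 and 9.42 FPKM in BMDM and to 7.04, 7.60 and 6.82 FPKM in BSM. Within these sums Ldha made up 85.3% ± 3.62 in BMDM and 49.3% ± 12.1 in BSM (SD, n = 3 each). It took 83.2% to 89.5% in the BMDM libraries and 38.1% to 62.1% in the BSM libraries, so the groups did not overlap (exact permutation p = 0.1, adjusted p = 0.156). By ALEXA-Seq its share was 76.6% to 83.2% in BMDM and 17.3% to 57.7% in BSM. A near-identical copy of Ldhb, Gm5514, covers 76.8% of its transcript and had 2.13 to 3.57 FPKM in BSM. With that row added to Ldhb, the share of Ldha was 78.5% in BMDM and 35.2% in BSM on average. The annotation also has 2 near-identical copies of Ldha, which cover 55.0% and 54.8% of its transcript. Neither has an FPKM or ALEXA-Seq row, so nothing could be added to Ldha and the changed share allows for the copy of Ldhb alone.

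**Figure D3:**
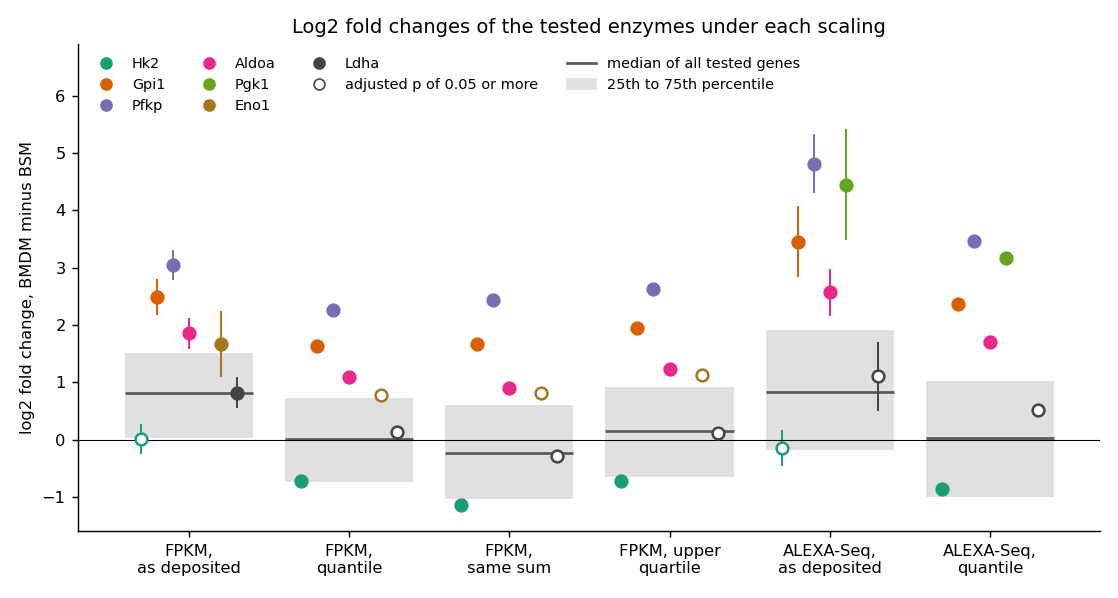
Log2 fold changes of the tested enzymes, positive for higher in BMDM, under each scaling of both tables (filled points have an adjusted p under 0.05, bars are standard errors where the values were used as deposited). Grey bands give the 25th to 75th percentile and grey lines the median of all tested genes. Gpi1, Pfkp and Aldoa stay above the bands in each column, Hk2 is below the line in each, and Ldha stays close to it by FPKM.

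The 2 tables gave Pgk1 very different values, and the same held for 2 later enzymes of the pathway. Over 6731 genes with a mean of at least 1 FPKM, the ALEXA-Seq value was 13.4 times the FPKM at the median, and 4.02 to 27.4 times between the 5th and 95th percentiles. For 8 of the 10 enzymes the ratio of the means lay between 5.11 and 24.2. Eno1 had a ratio of 4.59, also inside that range. Pgk1 had a ratio of 190, above 99.9% of the genes, and its FPKM near 1 and its ALEXA-Seq values above 180 in BMDM describe the same libraries. The ratio was 62.7 for the pyruvate kinase gene Pkm2 and 2386 for the phosphoglycerate mutase Pgam1, named after its values were seen, above 99.3% and 100.0% of the genes. Within single genes the ratio also moved between libraries. For Eno1 it was 2.29 in BMDM replicate 1 and 7.60 to 14.4 in the others, and for Ldha it was 25.5 in BSM replicate 1 and 6.63 to 16.3 in the others. Ldha by ALEXA-Seq had 72.3, 135 and 92.8 in BMDM and 111, 36.1 and 21.6 in BSM. Its ALEXA-Seq log2 fold change of 1.11 (limma adjusted p = 0.166) became 1.76 without BSM replicate 1 (limma adjusted p = 0.00531). Of the enzymes tested in both tables, Gpi1, Pfkp and Aldoa were called higher in BMDM in both, with ALEXA-Seq log2 fold changes of 3.46, 4.81 and 2.57.

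**Figure D4:**
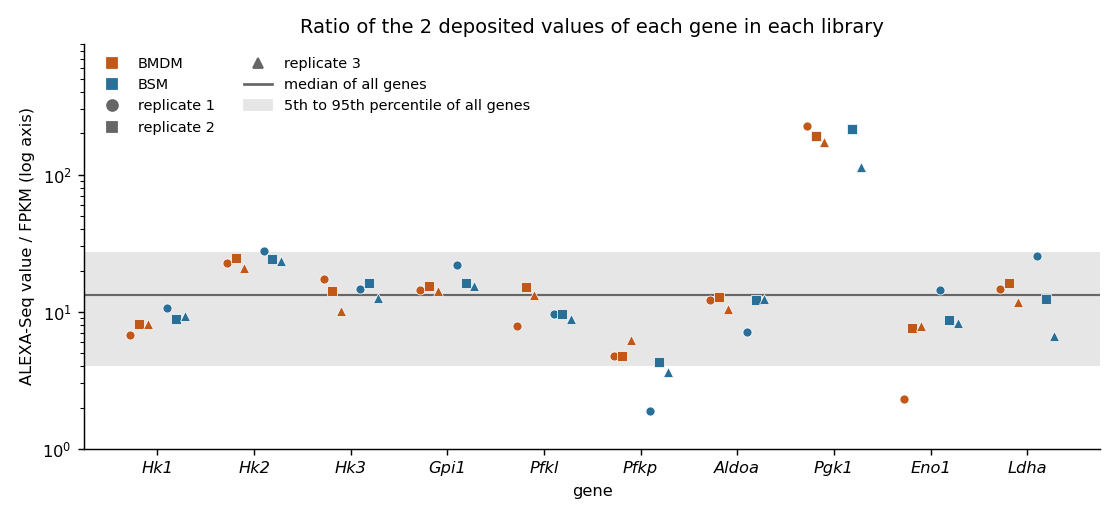
Ratio of the ALEXA-Seq value to the FPKM of each enzyme in each library on a log axis, with the median and the 5th to 95th percentile of 6731 genes. Pgk1 lies above the band in each of the 5 libraries where it has an FPKM, Eno1 in BMDM replicate 1 and Pfkp in BSM replicates 1 and 3 lie below it, and Hk2 in BSM replicate 1 lies just above it.

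The replicates did not contribute alike. BMDM replicate 2 had the highest FPKM of its group for 6 of the 10 enzymes, the highest sum of all FPKM, and the highest sums of granulocyte and erythroid markers given above. As a share of all FPKM the enzymes made up 0.0292% in it, between the other 2 BMDM libraries. BMDM replicate 1 had the lowest FPKM of its group for 7 of the 10 enzymes. BSM replicate 1 had the lowest FPKM of its group for 7 of the 10 enzymes. Its values for Hk1, Hk3, Gpi1, Pfkp, Pgk1 and Eno1 were under those of replicates 2 and 3 by more than these differed from each other. Leaving out both libraries, a choice made with the data in view, left 5 enzymes higher in BMDM, with log2 fold changes of 2.11 for Gpi1, 2.78 for Pfkp, 1.68 for Aldoa, 1.81 for Eno1 and 0.83 for Ldha, and the share of all tested genes higher in BMDM was then 55.5%. Replicate 1 was also the only male library of each group per the labels, so sex cannot be told apart from the other traits of these libraries. The part of granulocyte precursors, of RNA quality or of sex in the other values was not tested.

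Genes around the pathway were described from 10 fixed lists of 120 genes with a row, of which 60 passed the FPKM minimum. Of these 60, 34 were higher in BMDM and 6 in BSM, where 45.3% and 9.22% of all tested genes were, and their median log2 fold change was 1.1. Many of the genes called, in either direction, passed the minimum only through the group where they were higher. These counts, and those of the single lists below, therefore describe the genes that passed and not the whole lists. After quantile normalization these counts were 13 and 9, where 21.7% and 19.3% of all tested genes were, and with the same sum they were 11 and 10, where 15.2% and 24.9% were. Of the other glycolysis genes, 2 of 4 tested were higher in BMDM by FPKM and 4 of 5 by ALEXA-Seq, where 45.3% and 37.1% of all tested genes were. ALEXA-Seq added Pgam1 (log2 fold change 3.09, limma adjusted p = 0.000292) and Bpgm, both named after their values were seen. Pkm2, the pyruvate kinase gene, had 6.51, 12.9 and 7.56 FPKM in BMDM and 0.654, 0.646 and 0.615 FPKM in BSM, a log2 fold change of 2.56 (limma adjusted p = 0.000286), though its FPKM level is uncertain given the ratio of the tables above. Tpi1, the triosephosphate isomerase, had a log2 fold change of 1.36 (limma adjusted p = 0.0164), which was not called under the other FPKM scalings. Gapdh, named after its values were seen, overlapped between the groups at 0.578 to 1.59 FPKM in BMDM and 0.487 to 1.75 FPKM in BSM, and 71 near-identical copies in the annotation make its level uncertain.

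Glucose and fructose transporters and the regulators of phosphofructokinase each included 1 gene called higher in BSM. Slc2a5, a fructose transporter, had 11.7, 8.47 and 6.97 FPKM in BSM, was listed at 0 in BMDM replicates 1 and 3 and had 0.00361 FPKM in BMDM replicate 2. It was called higher in BSM in both tables and in each scaling. Slc2a1, the widespread glucose transporter, had 2.71 to 4.69 FPKM in BMDM and 0.912 to 1.94 FPKM in BSM, was called higher in BMDM by FPKM as deposited (log2 fold change 0.99, limma adjusted p = 0.021) and was not called by ALEXA-Seq or under the other scalings. Pfkfb3 makes fructose-2,6-bisphosphate, the strongest activator of phosphofructokinase. It had 2.57, 4.34 and 2.42 FPKM in BMDM and 20.6, 11.2 and 10.5 FPKM in BSM, a log2 fold change of -1.85 (SE 0.33, limma adjusted p = 0.00247) in the opposite direction to Pfkp. Pfkfb2, a second kinase of this kind, had a log2 fold change of -1.15 (limma adjusted p = 0.0683) and was called higher in BSM under each of the other FPKM scalings. Its difference was largest in BSM replicate 1, with 9.3 FPKM against 2.58 and 2.21 FPKM in BSM replicates 2 and 3 and 0.682 to 1.56 FPKM in BMDM. Hif1a and Arnt, the subunits of HIF-1, had 9.91 to 13.1 and 12.6 to 13.8 FPKM in BMDM and 5.80 to 11.9 and 5.87 to 16.3 FPKM in BSM. Neither was called (log2 fold changes 0.37 and 0.21, limma adjusted p = 0.315 and 0.651). Slc2a1, Pfkfb2, Hif1a and Arnt were named after their values were seen. Egln1, the oxygen sensor that marks HIF-1 for decay, had a log2 fold change of 1.1 (limma adjusted p = 0.0178) that was not called under the other scalings.

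Genes that set the fate of pyruvate were called in both directions. Pdk1, the kinase that shuts off pyruvate dehydrogenase, had 0.647, 0.372 and 0.753 FPKM in BMDM and 11.7, 5.24 and 5.98 FPKM in BSM. Its log2 fold change was -2.38 (SE 0.32, limma adjusted p = 0.000732), and it was called in each scaling of both tables. Pdk3, another kinase of the family, went the other way, with 1.82, 4.39 and 2.58 FPKM in BMDM and 0.299, 1.05 and 0.730 FPKM in BSM. The dehydrogenase subunit genes Pdha1, Pdhb and Dld had log2 fold changes of 1.15, 1.16 and 1.21 in favour of BMDM, and neither these nor Pdk3 were called under the other scalings. Of 15 tested genes of the tricarboxylic acid cycle, 13 were higher in BMDM, where 45.3% of all tested genes were. Several of these 13 passed the minimum through BMDM alone, so the count describes only the genes that passed. With quantile normalization, the same sum and upper quartile scaling 5, 2 and 2 were, where 21.7%, 15.2% and 21.7% of all tested genes were. The median log2 fold change of the 15 genes as deposited was 1.22. Only Cs, the citrate synthase (2.10), and Ogdh, a subunit of the oxoglutarate dehydrogenase (1.92), were called under each FPKM scaling.

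The branches that leave glycolysis at glucose-6-phosphate held genes with large differences in favour of BMDM. Of the 8 genes of the pentose phosphate pathway, which yields NADPH and ribose, 5 were higher in BMDM and Pgls was higher in BSM. Of all tested genes 45.3% and 9.22% were. G6pdx, the first and limiting enzyme of that pathway, had 31.4, 53.2 and 36.4 FPKM in BMDM and 3.08, 4.34 and 2.78 FPKM in BSM (log2 fold change 3.21, SE 0.28, limma adjusted p = 7.83e-05). Pgd, Taldo1 and Tkt followed with log2 fold changes of 2.25, 1.97 and 1.80, the last not called after quantile normalization. In glycogen metabolism 4 of 5 tested genes were higher in BMDM, where 45.3% of all tested genes were. Gyg, the protein primer of glycogen, had 61, 97.2 and 52.7 FPKM in BMDM and 1.05, 3.78 and 3.51 FPKM in BSM. Pygl, the glycogen phosphorylase of liver and leukocytes, had 14.2, 21.9 and 16.8 FPKM in BMDM and 0.0975, 0.438 and 0.471 FPKM in BSM. Both were called in each scaling, with log2 fold changes of 4.28 and 3.79. Pgls, the lactonase after G6pdx, was at 0.0267 to 0.402 FPKM in BMDM and 1.21 to 8.99 FPKM in BSM, was not called in the ALEXA-Seq values as deposited (limma adjusted p = 0.0698), was called there after quantile normalization, and was named after its values were seen.

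The hypoxia-responsive genes outside glycolysis were called in both directions. Of 7 tested, 2 were higher in BMDM and 1 in BSM, where 45.3% and 9.22% of all tested genes were. Ndrg1 had 4.00, 6.91 and 4.55 FPKM in BMDM and was listed at 0 in BSM replicates 1 and 2 and at 0.0166 FPKM in replicate 3. Bnip3l, a receptor for the removal of mitochondria, had a log2 fold change of 1.24 (limma adjusted p = 0.00261) that was not called under the other FPKM scalings. P4ha1, a collagen prolyl hydroxylase, had 0.957, 0.427 and 1.41 FPKM in BMDM and 1.42, 5.69 and 5.66 FPKM in BSM (log2 fold change -1.33, limma adjusted p = 0.036). Its FPKM call was lost without any 1 of the libraries other than BSM replicate 1 (limma adjusted p 0.0638 to 0.127), and so was its ALEXA-Seq call (limma adjusted p 0.0624 to 0.128). The only tested gene of gluconeogenesis, Pck2, a mitochondrial carboxykinase named after its values were seen, was not called in either table as deposited and was called higher in BSM under each other scaling.

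**Figure D5:**
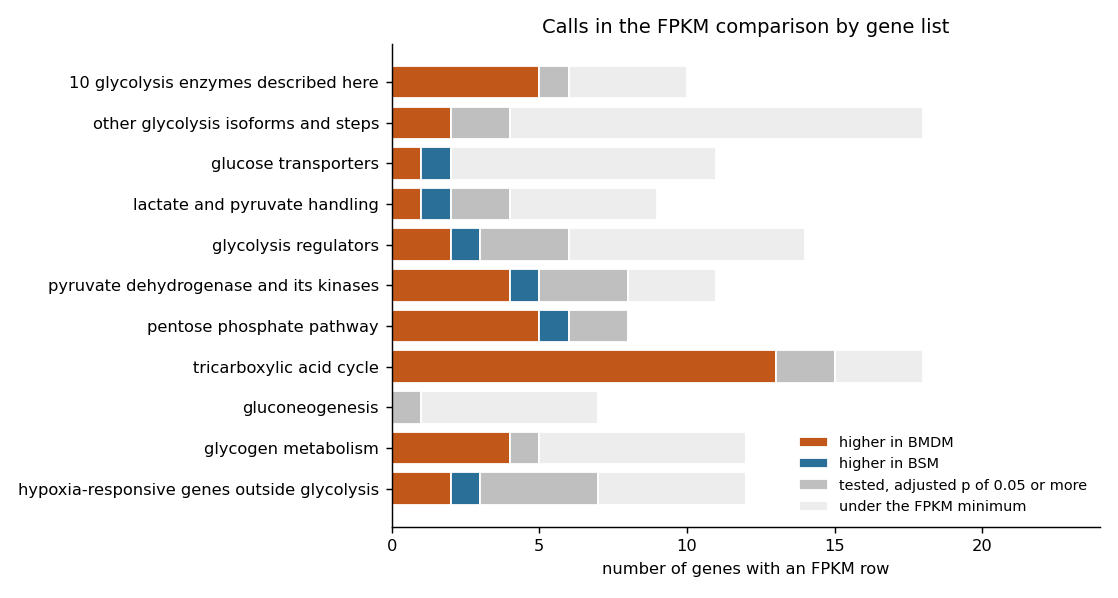
Number of genes in each list that were higher in BMDM, higher in BSM, tested without a call or under the minimum of 3 FPKM, in the comparison of FPKM as deposited. In the tricarboxylic acid cycle 13 of 15 tested genes were higher in BMDM, where 45.3% of all tested genes were. Many of the genes called passed the minimum only through the group where they were higher. A gene higher in BSM appears in 6 of the 10 lists outside the enzymes.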

How the data were processed

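RNA-Seq of 3 BMDM and 3 BSM libraries was analysed. Per the labels, total RNA of sorted cells was amplified by the Ovation RNA-Seq method and sequenced as paired ends. The authors deposited FPKM for each gene and library, and the submitters' processing notes name CASAVA 1.7.0, TopHat 1.3.1, Bowtie 0.12.7, Cufflinks 1.0.3 and build mm9. The authors also deposited an ALEXA-Seq expression signal whose unit and normalization are not given in the sources used here. FPKM starts in the table count from 0 and are printed counted from 1. Neither table holds counts, so the depth behind single values is unknown. From the steps between the lowest FPKM, the FPKM worth of 1 fragment differed from that in BMDM replicate 1 by -0.46 to 0.11 on the log2 scale.

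Values were tested on log2(value + 1), which understates changes of low genes, with limma 3.58.1 in R 4.3.3 (mean-variance trend, two-sided) and Benjamini-Hochberg adjustment over 6364 genes, for ALEXA-Seq those with the highest values. Tables were handled with pandas 2.3.3 in Python 3.11.15. The fits were checked on simulated data with known fold changes. Near-identical copies were transcripts of other genes in GENCODE M21 matched by blastn 2.17.0 at 95% identity over at least 100 bases, with at least 50% of the transcript covered. The enzymes, lists, tests and named genes were chosen with earlier results of these data known. Named from the lists were the genes called in both tables in the same direction, up to 4 per list and direction, taken by absolute log2 fold change, and others are said to be named after their values were seen. Some isoforms and markers are not reported here by name. The replicates are pools of mice, and the alternatives are in the closing section.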

Additional observations from a re-analysis of the deposited data

How the results depend on the processing

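The scaling between libraries changed the most values. In the FPKM comparison, the genes higher in BMDM and in BSM numbered 2883 and 587 as deposited, 1378 and 1227 by quantile normalization, 968 and 1585 with the same sum, and 1379 and 1051 by upper quartile scaling. Of the 10 enzymes, 3 were then higher in BMDM (Gpi1, Pfkp and Aldoa) and 1 higher in BSM (Hk2) under each of these, in place of 5 and 0. These scalings move nearly all genes together. The log2 fold change of Hk2 was then -0.72, -1.14 and -0.73, and with the same sum that of Ldha was -0.28 and that of Dld -0.004, whereas Hk2 less the median of all tested genes stayed between -0.91 and -0.74. Of the other glucose metabolism genes, 34 and 6 became 13 higher in BMDM after quantile normalization, 11 and 10 with the same sum, and 13 with upper quartile scaling. Without any FPKM minimum, 3 of these were higher in BSM. For ALEXA-Seq, quantile normalization gave 1439 and 1349 genes in place of 2359 and 691, 1 enzyme higher in BSM (Hk2), and 19 and 9 other glucose metabolism genes in place of 32 and 5.

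Leaving out 1 library at a time, 3 to 4 enzymes were higher in BMDM by FPKM. Of the other glucose metabolism genes, 3 to 6 were higher in BSM, with 3 without BMDM replicate 1 or BMDM replicate 3. Among all 6364 genes tested by FPKM, 2037 to 3194 were higher in BMDM in these refits and 461 to 738 in BSM. The ALEXA-Seq calls ranged from 1971 to 3984, those higher in BMDM from 1452 to 3082, and the other glucose metabolism genes higher in BMDM from 20 to 39, each lowest without BMDM replicate 3. Those higher in BSM by ALEXA-Seq ranged from 519 to 902. Without BMDM replicate 2 and BSM replicate 1 together, an alternative chosen with the data in view, 4444 genes were called by ALEXA-Seq, 3349 higher in BMDM and 1095 in BSM, with 41 other glucose metabolism genes higher in BMDM.

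Among isoforms that reached 5% of their family in at least 1 library, shares by ALEXA-Seq differed between BMDM and BSM by 7.12 percentage points for Hk1, -15.03 for Hk2, 3.63 for Aldoa (a change of sign of a difference near 0), 46.65 for Ldha and -46.83 for Ldhb, in place of 16.31, -25.83, -0.06, 35.98 and -36.02.

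The libraries share replicate numbers in the labels. The deviations from the group means of same-numbered libraries correlated at -0.019, -0.008 and 0.134, so the numbers were not taken to pair them. With the replicate block, 3471 genes were called in place of 3470, and 3 enzymes in place of 5, since Eno1 (adjusted p = 0.06 in limma) and Ldha (adjusted p = 0.0639 in limma) passed the threshold no more.

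With 6 libraries and no fragment numbers for single genes, small differences cannot be resolved, and levels near 0 FPKM are uncertain. The cause of the different sums of FPKM in the groups was not tested. Of 96 refitted FPKM values of the enzymes, 18 lost a call, 4 were counted as reversed and 74 as the same. Among the 74 were values of Hk2 that changed sign close to 0 and stayed without a call. Its log2 fold change was -0.17 without BMDM replicate 2, -0.06 without BSM replicate 3 and -0.11 without BMDM replicate 2 and BSM replicate 1.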
